A study of Mus musculus with 12 samples.

Results

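The aminoacyl-tRNA synthetase genes were picked from the count table by symbol: a capital letter followed by "ars", with or without a final 1 or 2, together with Farsa, Farsb and Eprs. The rule found 37 of the 35869 gene symbols in the table. Of these, 17 end in 2 and encode mitochondrial enzymes, and the other 20 encode cytosolic enzymes. All 37 members passed the filter on low counts.

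Polyadenylated RNA was sequenced from colonoids, which are epithelial cultures grown in Matrigel from colon crypts of C57BL/6 mice in medium with EGF and L-WRN conditioned medium. There were 4 groups of 3 libraries: no cytokine, recombinant mouse IL-22 at 1 ng/mL, recombinant mouse IL-1b at 100 ng/mL, and both cytokines at these doses. Stimulation lasted 12 h, and the labels give neither a time nor a vehicle for the unstimulated cultures. No genetic change is named in the labels, and they do not say whether the libraries of a group came from separate cultures or animals, so the tests measure the spread between these libraries, which may be technical.

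Each synthetase joins 1 amino acid to its tRNAs, and the charged tRNAs carry the amino acids to the ribosome. Most amino acids have a cytosolic enzyme for the ribosomes of the cytoplasm and a separate nuclear-encoded enzyme that is imported into mitochondria, while Gars (glycine) and Kars (lysine) each serve both compartments from 1 gene. When uncharged tRNAs or other stresses lead to phosphorylation of the initiation factor eIF2, the transcription factor ATF4 is made, and many cytosolic synthetase genes are known ATF4 targets along with genes of amino acid synthesis and uptake.

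Library totals ran from 4703902 to 5804033 counts. The 14 colon epithelial markers (keratins, Epcam, Cdh1, Vil1, Muc2 and others) were all detected in every group. They summed to 3879 to 4104 CPM (counts scaled to a common library total) without cytokine and 3988 to 4542 with IL-22. The sums were 3629 to 3975 CPM with IL-1b and 4202 to 4382 CPM with both cytokines. Every library with both cytokines thus lay above every library without IL-22. Leukocyte markers summed to 4.17 to 6.41 CPM without cytokine, 6.41 to 10.4 with IL-22, 16.1 to 70.2 with IL-1b and 5.04 to 13.9 with both, with Tyrobp at 0 throughout and Cd79a at 0 in the IL-22 and IL-1b groups. The 9 fibroblast and smooth muscle markers summed to 32.1 to 46.0, 18.8 to 27.9, 38.2 to 45.1 and 13.1 to 15.1 CPM in the same order, with Lum at 0 throughout and Col1a2 and Dcn at 0 in the 3 groups with a cytokine. The 4 endothelial markers, of which Cdh5 was at 0 in 3 groups, summed to 4.74 to 7.13, 1.11 to 1.65, 5.27 to 8.32 and 0.858 to 4.31 CPM. The fibroblast and smooth muscle sum and the endothelial sum were each almost wholly 1 gene. Pdgfrb had mean levels of 39.8, 21.4, 39.0 and 13.3 CPM in that order of groups, with the other 8 fibroblast and smooth muscle markers under 1 CPM. Pecam1 had 6.08, 1.23, 6.80 and 2.13 CPM, with Cdh5, Kdr and Tek at or near 0. Pdgfrb and Pecam1 were thus lower in the groups with IL-22, where the cytosolic synthetases were higher, and their part in the results was not tested. In bulk RNA, fewer cells of a type and less RNA per cell cannot be told apart. Among the leukocyte markers, Laptm5 had 130, 28 and 32 counts with IL-1b, Ptprc 104, 20 and 12 and Coro1a 76, 14 and 9. Without cytokine they had 5, 1 and 4, 0, 2 and 2, and 1, 3 and 1 counts. Cd52 and Cd3e were also highest in IL-1b replicate 1, while mean levels of Lyz2, Csf1r and Cd74 were not higher with IL-1b. The part of these counts in the results was not tested.

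With IL-22, 14 of the 20 cytosolic synthetase genes rose and none fell, while none of the 17 mitochondrial genes passed the test in either direction. Genes were called by edgeR's quasi-likelihood test where the p, adjusted by Benjamini-Hochberg across the 13987 genes tested, was under 0.05. Of all those genes 11.9% were called higher and 10.6% lower. Cytosolic genes had a median log2 fold change of 0.25 and mitochondrial genes one of -0.07, beside 0 for all genes tested. Among the called genes the log2 fold change ran from 0.16 (Sars) to 0.47 (Rars), so that all were modest. The genes called were Aars, Cars, Dars, Farsb, Gars, Iars, Lars, Mars, Nars, Rars, Sars, Tars, Wars and Yars. The CPM of 15 cytosolic genes lay above every unstimulated library in every IL-22 library, against 17.7% of all genes. Leaving out unstimulated replicate 1 lowered the cytosolic count to 9, through Dars, Iars, Lars, Sars and Yars.

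**Figure D1:**
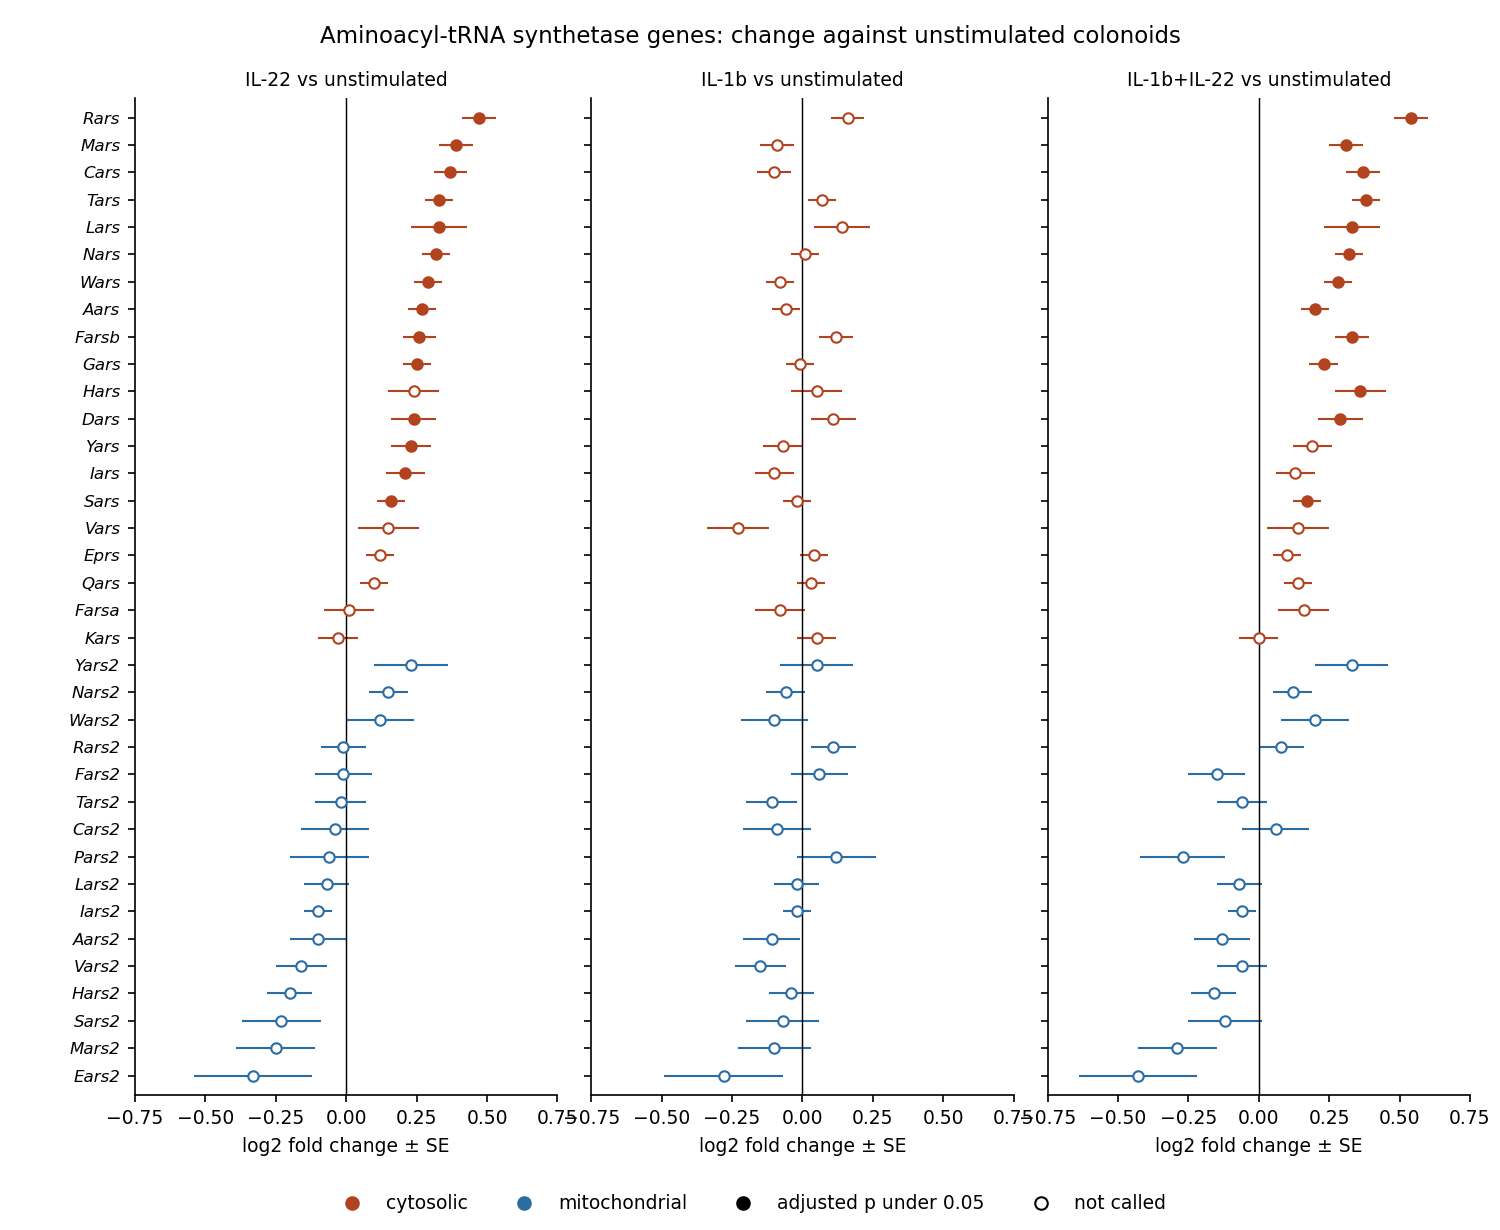
Log2 fold change ± SE of 36 synthetase genes (rows) with IL-22, IL-1b or both cytokines against unstimulated colonoids, from the edgeR fit over 12 libraries. Cytosolic genes are in red and mitochondrial genes in blue, and filled points have an adjusted p under 0.05: 14 cytosolic genes with IL-22, 13 with both, and no gene with IL-1b alone.

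Rars (chr11:35808381-35834506, - strand, mm10), which charges arginine tRNAs, had the highest fold change. Its level was 144, 161 and 159 CPM in the 3 unstimulated libraries and 216, 218 and 208 CPM in the 3 IL-22 libraries. With IL-1b it was 182, 166 and 172 CPM, and with both cytokines 229, 212 and 237 CPM. Every library with IL-22 lay above every library without it, and the IL-1b libraries lay above the unstimulated ones. The mean rose 1.38-fold with IL-22 (log2 fold change 0.47 ± 0.06 SE, edgeR adjusted p = 0.000111) and 1.46-fold with both cytokines (0.54 ± 0.06, edgeR adjusted p = 2.22e-05).

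Mars (chr10:127296221-127311786, - strand) charges methionine tRNAs, including the initiator. Its level was 117, 109 and 109 CPM without cytokine and 137, 148 and 154 CPM with IL-22. It was 100, 111 and 103 CPM with IL-1b and 143, 137 and 136 CPM with both. The libraries with and without IL-22 did not overlap, and the log2 fold change was 0.39 ± 0.06 with IL-22 (edgeR adjusted p = 0.000474) and 0.31 ± 0.06 with both (0.00185). Mars shares 68 exon bases with Ddit3 on the opposite strand, and Ddit3 itself, which encodes the stress factor CHOP, had a log2 fold change of 0.20 ± 0.10 with IL-22 (edgeR adjusted p = 0.193).

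Cars (chr7:143557230-143600090, - strand), the cysteine enzyme, was at 105, 105 and 106 CPM without cytokine, and at 132, 138 and 140 CPM with IL-22. With IL-1b its level was 95.4, 96.5 and 102 CPM, and with both it was 130, 144 and 135 CPM. All 3 IL-1b libraries were below the unstimulated libraries, and all 6 libraries with IL-22 were above both of those groups. The log2 fold change was 0.37 ± 0.06 with IL-22 (edgeR adjusted p = 0.000348), 0.37 ± 0.06 with both and -0.10 ± 0.06 with IL-1b (edgeR adjusted p = 0.567).

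Tars (chr15:11382301-11399665, - strand), the threonine enzyme, had 142, 144 and 150 CPM without cytokine and 190, 179 and 181 CPM with IL-22. It had 158, 147 and 152 CPM with IL-1b and 188, 182 and 198 CPM with both. The libraries with IL-22 again lay above all others, at a log2 fold change of 0.33 ± 0.05 with IL-22 (edgeR adjusted p = 0.000523) and 0.38 ± 0.05 with both (0.000132).

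Phenylalanine is charged by an enzyme built from alpha and beta subunits. Farsb (chr1:78417975-78488897, - strand), the beta subunit, was at 107, 112 and 111 CPM without cytokine, 136, 130.5 and 129 CPM with IL-22, 124, 118 and 116 CPM with IL-1b and 141, 128 and 145 CPM with both. All groups with a cytokine lay above the unstimulated libraries. The log2 fold change was 0.26 ± 0.06 with IL-22 (edgeR adjusted p = 0.00602) and 0.33 ± 0.06 with both (0.00109). Farsb was not called with IL-1b (0.12 ± 0.06, edgeR adjusted p = 0.541). Farsa, the alpha subunit, ranged from 49.8 to 54.3 CPM without cytokine and from 45.2 to 61.5 CPM with IL-22, groups that overlapped (log2 fold change 0.01 ± 0.09, edgeR adjusted p = 0.954). With both cytokines Farsa lay above every unstimulated library (0.16 ± 0.09, edgeR adjusted p = 0.214), and against IL-1b alone both subunits were higher in every library with both cytokines, at 0.24 ± 0.09 for Farsa (edgeR adjusted p = 0.0676) and 0.21 ± 0.06 for Farsb (0.0173). Whether the subunits differ in response was not tested.

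Hars, the histidine enzyme, was at 63.6, 62.7 and 73.0 CPM without cytokine and 88.6, 73.3 and 73.6 CPM with IL-22. It was at 68.2, 65.7 and 72.3 CPM with IL-1b and 85.6, 81.9 and 88.4 CPM with both. The IL-22 libraries were all above the unstimulated ones, by little in 2 of 3, and Hars passed the test with both cytokines (log2 fold change 0.36 ± 0.09, edgeR adjusted p = 0.00633) but not with IL-22 alone (0.24 ± 0.09, edgeR adjusted p = 0.0586). Hars and its mitochondrial partner Hars2 are neighbours on opposite strands and share 195 exon bases.

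The other cytosolic genes that did not pass with IL-22 were Eprs (0.12 ± 0.05), Vars (0.15 ± 0.11), Qars (0.10 ± 0.05) and Kars (-0.03 ± 0.07). Eprs encodes a single protein that charges both glutamate and proline tRNAs. Kars lay between 117 and 145 CPM in all 12 libraries and its groups overlapped. Of the enzymes that serve both compartments, Gars rose (0.25 ± 0.05, edgeR adjusted p = 0.00163) and Kars was not called.

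**Figure D2:**
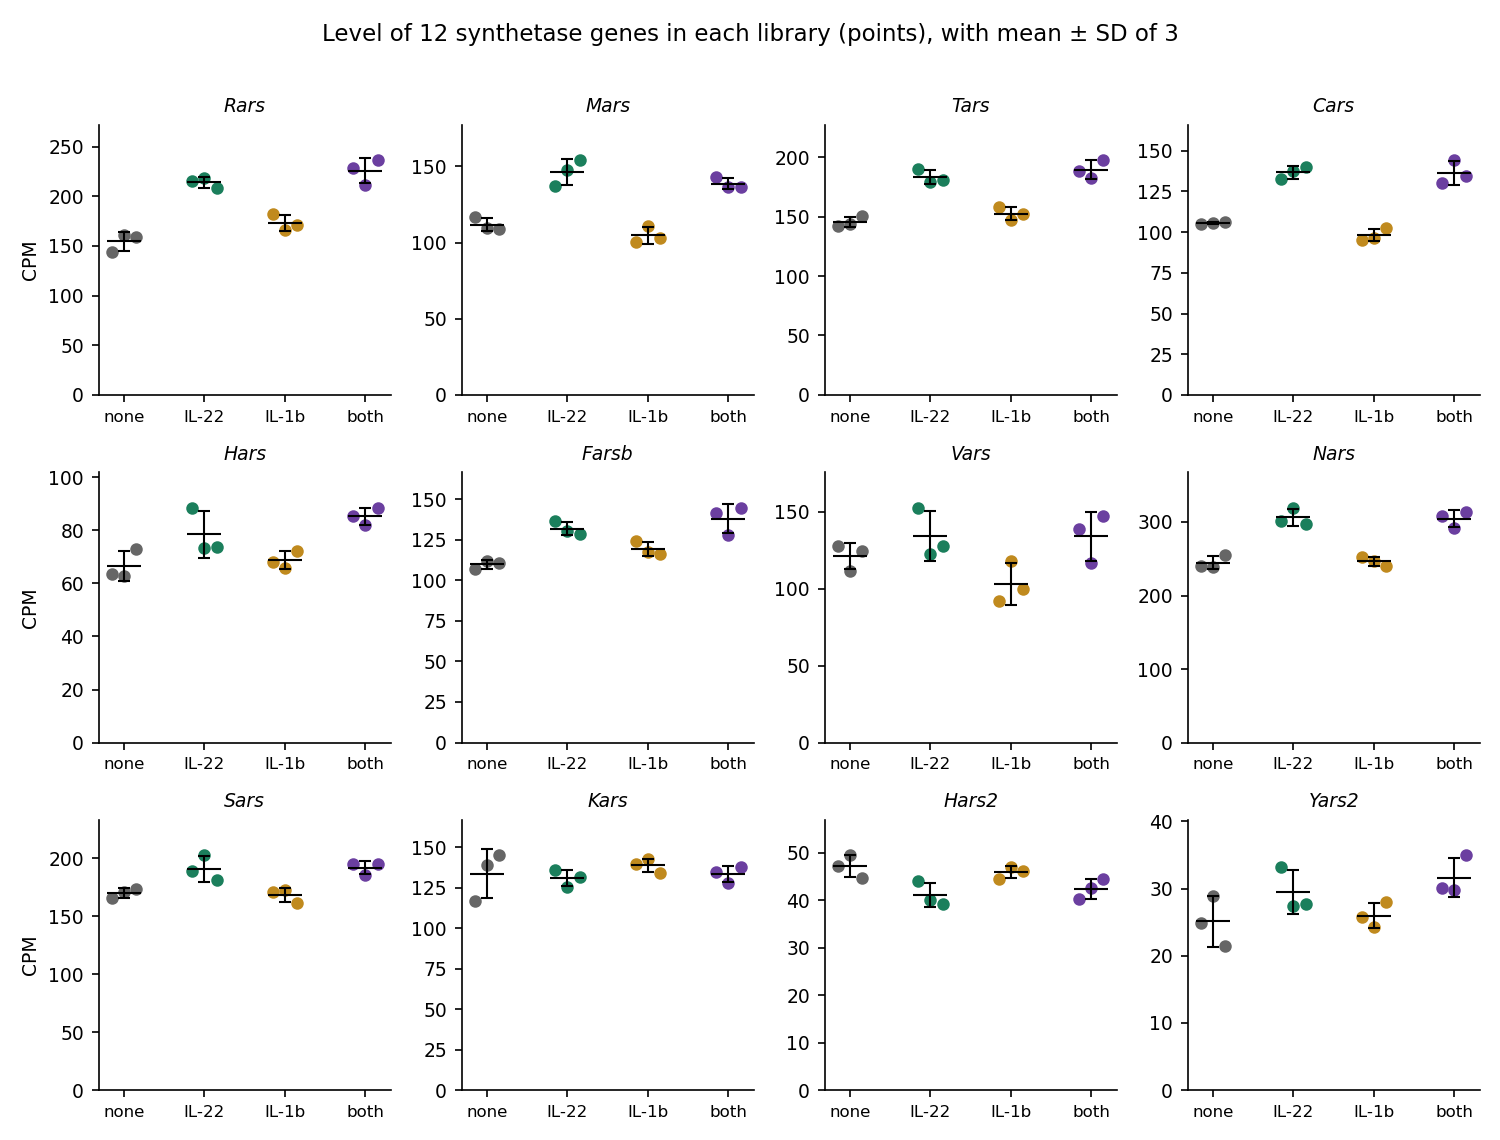
CPM of 12 synthetase genes in each of 12 libraries (points) with the mean ± SD of 3 libraries (bars), without cytokine and with IL-22, IL-1b or both. Rars, Mars, Tars and Cars lie higher in all 6 libraries with IL-22, while Kars stays between 117 and 145 CPM. Nars, Sars, Kars, Hars2 and Yars2 were added to the plot after their values were seen.

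The called genes were spread over the structural classes of synthetases. Class I enzymes, built on a Rossmann fold, had 7 of 10 genes called higher with IL-22, and class II enzymes, with an antiparallel beta-sheet core, also had 7 of 10. Of the 8 enzymes that are held in the multisynthetase complex, 5 were called (Dars, Iars, Lars, Mars and Rars), beside 9 of the 12 that are not. The non-enzymatic scaffolds of that complex, Aimp1, Aimp2 and Eef1e1, had log2 fold changes of 0.03, 0.00 and 0.16 with IL-22, and none passed the test at either the adjusted threshold or an unadjusted p under 0.05 (edgeR; DESeq2 also called 0). With both cytokines the 3 scaffolds were at 0.22, 0.20 and 0.29 against unstimulated. All 3 lay above every unstimulated library with an unadjusted p under 0.05, and none was called (lowest edgeR adjusted p = 0.0507). Against IL-1b alone, Aimp2 was called higher with both (0.31 ± 0.08, edgeR adjusted p = 0.0142), a call lost with DESeq2 and without IL-1b replicate 1 or replicate 3 of both cytokines.

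The promoters of the called genes are shown where they hold the composite ATF4-C/EBP element, because many cytosolic synthetases are known ATF4 targets. RefSeq promoters (assembly GRCm38.p6, 250 bases before to 50 bases after the transcription start) were matched for 13 of 20 cytosolic members and 14 of 17 mitochondrial members. Among those without a match were Cars, Hars, Lars, Nars, Rars, Vars, Wars, Hars2 and Pars2. The element TGATGNAA, searched on both strands (TTNCATCA on the other), was found in 2.43% of the 13210 promoters of genes tested. It was found in 5 of 13 cytosolic promoters and in 0 of 15 mitochondrial promoters. The 5 genes are Aars, Gars, Iars, Tars and Yars, all of which were called higher with IL-22. They stand beside 14 of all 20 cytosolic genes, some of which had no promoter to search. The Iars call was lost in 11 of 20 other settings, and its IL-22 and unstimulated libraries overlapped in CPM. The Yars call was lost in 5 of 20. Each sequence runs 5′ to 3′ on the gene's strand from 120 bases before to 20 bases after the start, with the element in capitals. The stretches are chr8:111033722-111033861 (Aars, + strand), chr6:55037881-55038020 (Gars, +), chr13:49682010-49682149 (Iars, +), chr15:11399639-11399778 (Tars, - strand) and chr4:129189783-129189922 (Yars, +).
Aars: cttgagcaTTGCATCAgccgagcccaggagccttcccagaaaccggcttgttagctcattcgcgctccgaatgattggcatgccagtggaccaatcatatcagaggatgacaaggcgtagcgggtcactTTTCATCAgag
Gars: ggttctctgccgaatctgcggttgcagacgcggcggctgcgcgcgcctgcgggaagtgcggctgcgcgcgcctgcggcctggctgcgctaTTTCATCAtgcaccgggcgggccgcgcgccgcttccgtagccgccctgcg
Iars: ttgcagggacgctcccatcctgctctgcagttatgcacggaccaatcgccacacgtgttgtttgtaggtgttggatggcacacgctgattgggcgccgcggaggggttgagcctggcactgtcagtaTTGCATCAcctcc
Tars: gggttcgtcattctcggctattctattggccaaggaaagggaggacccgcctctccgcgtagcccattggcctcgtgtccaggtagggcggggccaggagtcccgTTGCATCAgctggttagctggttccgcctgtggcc
Yars: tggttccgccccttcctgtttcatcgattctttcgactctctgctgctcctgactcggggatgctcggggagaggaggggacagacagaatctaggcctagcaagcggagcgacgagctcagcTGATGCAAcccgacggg
Counting the first transcribed base as 0, the element begins at -112 and again at 9 in Aars, at -30 in Gars, at 7 in Iars, at -15 in Tars and at 3 in Yars. Iars, Tars and Aars hold TTGCATCA, Aars (its other match) and Gars hold TTTCATCA, and Yars holds TGATGCAA, the reverse complement of TTGCATCA. Mars, Farsb, Sars and Dars were called higher with IL-22 without a match in the window. Eprs, Farsa, Kars and Qars also had no match and were not called. The STAT motif TTCNNNGAA was in 6.97% of all promoters, 2 of 13 cytosolic promoters (Aars and Kars) and 1 of 15 mitochondrial promoters (Nars2). The E-box CACGTG was in 9.58% of all promoters, 4 of 13 cytosolic promoters and 1 of 15 mitochondrial promoters. These matches describe letters in a window and are not binding sites.

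Among the mitochondrial genes with IL-22, log2 fold changes ran from -0.33 ± 0.21 (Ears2, glutamate) to 0.23 ± 0.13 (Yars2, tyrosine), and 3 of 17 were above 0. At an unadjusted p under 0.05 the edgeR test listed 1 gene, Hars2 (-0.20 ± 0.08, adjusted p = 0.0844), and DESeq2 called 0. Hars2 was at 47.2, 49.5 and 44.8 CPM without cytokine and 44.0, 40.1 and 39.2 CPM with IL-22, so that its groups did not overlap. Of the 17 genes, 1 lay above and 3 lay below all unstimulated libraries, against 17.7% and 17.0% of all genes. The mitochondrial genes had fewer counts, and their median coefficient of variation within a group was 7.25%, beside 3.86% for the cytosolic genes, so changes of the size seen for cytosolic genes were harder to detect.

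Summed over members, the 20 cytosolic genes went from 2953 ± 77.5 CPM (SD, n = 3) without cytokine to 3505 ± 54.4 CPM with IL-22. The sum was 2953 ± 44.2 CPM with IL-1b and 3506 ± 81.1 CPM with both. The 17 mitochondrial genes summed to 842 ± 22.6, 804 ± 46.1, 829 ± 24.4 and 815 ± 14.2 CPM in the same order. The cytosolic sum therefore stood apart in the groups with IL-22, and the mitochondrial sums lay within or close to the spread of the groups.

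The ratio of cytosolic to mitochondrial counts is free of library scaling. It was 3.46, 3.38 and 3.69 without cytokine, 3.71, 3.56 and 3.43 with IL-1b, 4.22, 4.66 and 4.24 with IL-22 and 4.33, 4.27 and 4.30 with both. No library without IL-22 reached any library with it. Cytosolic genes were also set against their own mitochondrial partners, in 17 pairs. In 6 pairs the ratio was higher in all 6 libraries with IL-22 than in all 6 without: Aars, Hars, Iars, Mars and Rars over their partners, and Farsb over Fars2. The other 11 pairs overlapped, and none was lower in all 6. The share among other pairs of genes was not computed. In these pairs the cytosolic gene mostly had the higher count per exon base, and fold change went with that level in the whole table, as given below. The Mars over Mars2 ratio was 3.86 to 4.91 without IL-22 and 5.83 to 8.12 with it, and the Rars over Rars2 ratio 2.37 to 2.67 and 3.08 to 3.73. Iars2, which encodes the isoleucine enzyme of mitochondria, had more counts than Iars in all libraries, but 24.2% of its exon bases are shared with Rab3gap2 and an antisense model. These ratios use the counts of the tests above and are not independent of them.

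**Figure D3:**
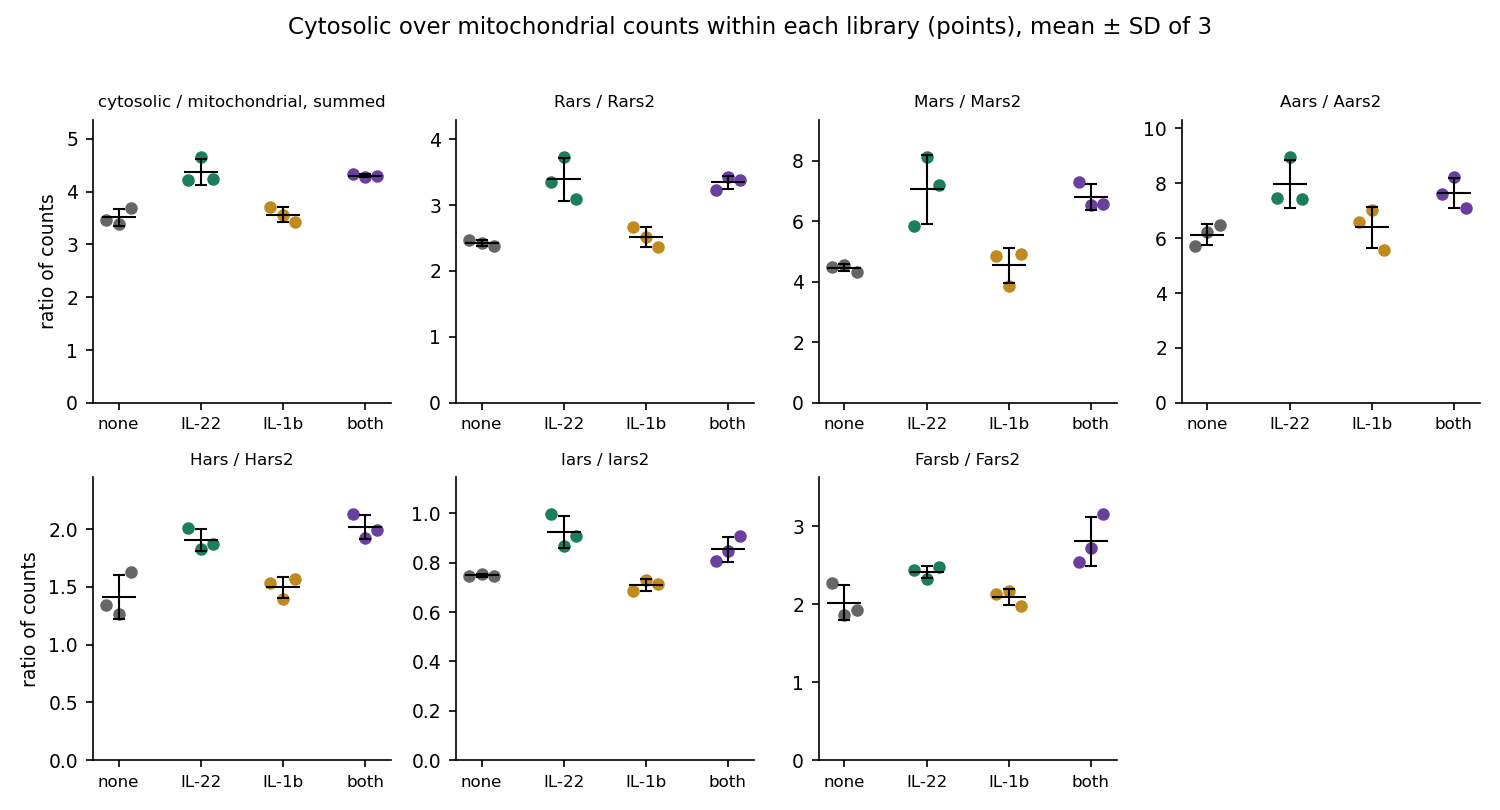
Ratio of cytosolic to mitochondrial synthetase counts within each library (points), with mean ± SD of 3 libraries per group, for the summed genes and for the 6 pairs whose ratio was higher in all 6 libraries with IL-22. The summed ratio lies between 3.38 and 3.71 without IL-22 and between 4.22 and 4.66 with it.

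Level and compartment went together in these genes, and fold change went with level in the whole table. The mean count per exon base was 0.0612 to 0.411 for cytosolic genes (median 0.149) and 0.0104 to 0.124 for mitochondrial genes (median 0.0370), with 3 of 20 and 15 of 17 under 0.1. The median over all genes of the log2 fold change with IL-22 was -0.18 under 0.02 counts per exon base, -0.03 from 0.02 to 0.1, 0.07 from 0.1 to 0.4 and 0.13 above that. The share called higher in these 4 classes was 5.2%, 8.98%, 19.9% and 29.7%. Of the 16 cytosolic genes from 0.1 to 0.4, 12 were called higher with a median of 0.25, beside the 19.9% and 0.07 of all genes in that class. In the same class the 2 mitochondrial genes, Rars2 and Iars2, had log2 fold changes of -0.01 and -0.10. Below it, 1 of 3 cytosolic genes (Cars) and 0 of 13 mitochondrial genes from 0.02 to 0.1 were called higher, beside 8.98% of all genes.

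When the trend of fold change on count per exon base was removed from each library, 10 cytosolic genes stayed called higher with IL-22 and Dars, Iars, Lars and Sars did not. The mitochondrial gene Nars2 was then called higher (0.24, edgeR adjusted p = 0.0253). The medians became 0.18 for cytosolic and -0.04 for mitochondrial genes. What produces the trend was not tested.

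**Figure D4:**
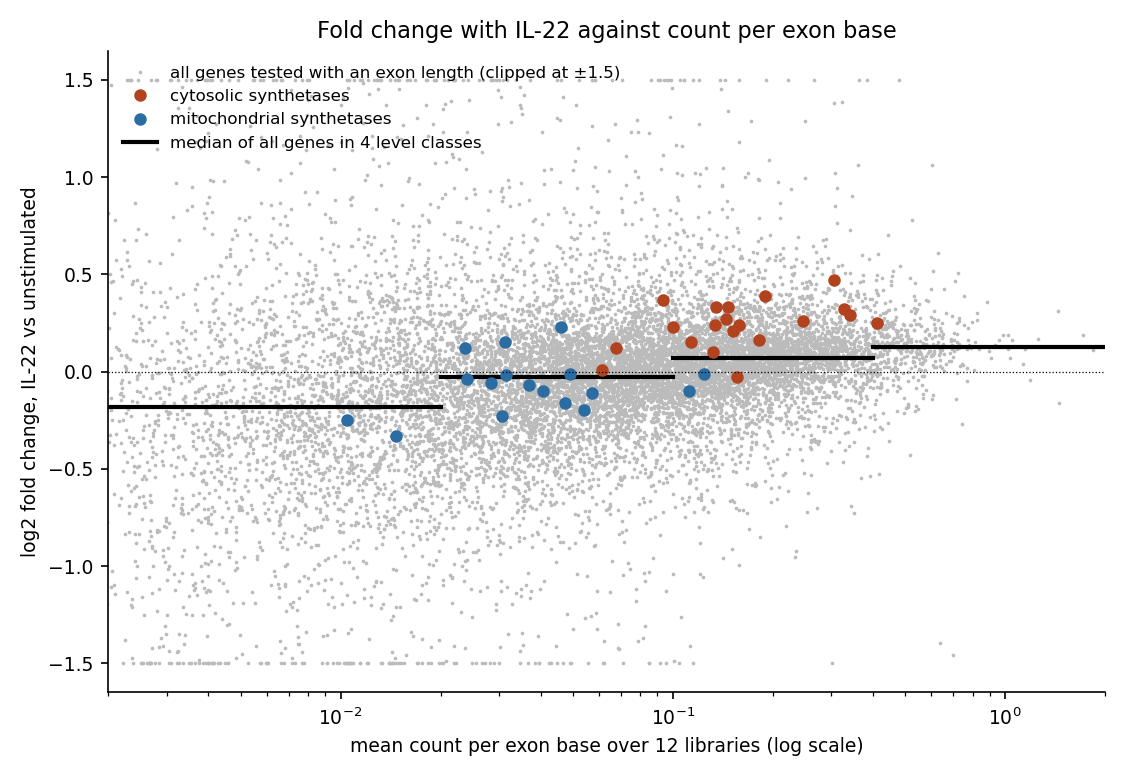
Log2 fold change with IL-22 against unstimulated (vertical axis) by mean count per exon base over 12 libraries (log axis). Gray points are all genes tested with an exon length, black bars their medians in 4 classes (-0.18, -0.03, 0.07 and 0.13), and red and blue points the cytosolic and mitochondrial synthetases, which occupy different parts of the axis.

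Sars, the serine enzyme, stood apart among the members in its counts. Its raw count was between 911 and 969 in all 12 libraries, a variance of 0.489 times the mean, which is below the variance of random sampling. The only other member under 1 was Nars2 (0.786), and the other 35 lay between 1.94 and 12.5. Sars had 166, 171 and 174 CPM without cytokine and 189, 203 and 181 CPM with IL-22, and the difference of 0.16 ± 0.05 (edgeR adjusted p = 0.0417) rests on library scaling of nearly constant counts. That call was lost in 16 of 20 other settings. The labels do not say whether reads at the same position were counted once, and the part of this in the narrow counts was not tested. With counts corrected for positions counted once, an alternative added after the data were seen, Rars went from 0.47 to 0.60 and Nars from 0.32 to 0.42, and the same 14 genes were called.

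With both cytokines, 13 cytosolic genes rose and none fell against unstimulated (median log2 fold change 0.25), and 0 of 17 mitochondrial genes passed (median -0.07; 1 at an unadjusted p under 0.05 in edgeR, 0 called by DESeq2), beside 13.7% of all genes called higher and 13.3% lower. The highest were Rars (0.54), Tars (0.38), Cars (0.37), Hars (0.36), Farsb (0.33) and Lars (0.33), and the others called were Nars, Mars, Dars, Wars, Gars, Aars and Sars. Iars (0.13) and Yars (0.19, edgeR adjusted p = 0.05005) were called with IL-22 but not with both. In CPM, 16 cytosolic genes lay above every unstimulated library in every library with both, and among the mitochondrial genes 3 lay above and 4 below, against 21.8% of all genes above and 20.5% below. The IL-22 comparison and this one share the unstimulated libraries and are not independent. Leaving out unstimulated replicate 2 added the mitochondrial gene Yars2 as a call (30.1, 29.8 and 34.97 CPM with both against 24.9, 28.9 and 21.4 CPM without cytokine), and Dars, Lars and Sars were not called without unstimulated replicate 1, unstimulated replicate 2, or replicate 1 or 3 of both cytokines.

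Adding IL-22 to IL-1b was compared through the libraries with both cytokines and those with IL-1b. Here 14 cytosolic genes were higher and none lower, beside 13.3% and 13.0% of all genes. Of the 16 mitochondrial genes whose values are reported here, none was called in either direction by edgeR or DESeq2, and 4 had an unadjusted p under 0.05 in edgeR: Nars2 (0.19), Wars2 (0.30) and Yars2 (0.28) were on the higher side and Pars2 (-0.39, edgeR adjusted p = 0.0614) on the lower side. Pars2, the mitochondrial proline enzyme, was called lower with only the libraries compared, and without IL-22 replicate 1 or IL-22 replicate 3. The highest were Cars (0.47 ± 0.06, edgeR adjusted p = 4.15e-05), Mars (0.40 ± 0.06), Rars (0.38 ± 0.06) and Vars (0.38 ± 0.11, edgeR adjusted p = 0.0210). Vars (chr17:35000987-35016322, + strand), the valine enzyme, had 91.9, 118 and 99.6 CPM with IL-1b and 139, 116 and 147 CPM with both, groups that overlapped. Without cytokine it had 128, 112 and 125 CPM. Leaving out replicate 3 of both cytokines lowered the cytosolic count to 9 (Farsb, Hars, Iars, Sars and Vars were not called).

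IL-1b alone left 0 of 37 synthetase genes called against unstimulated, beside 0.0715% of all genes. The log2 fold changes lay between -0.23 (Vars) and 0.16 (Rars) for cytosolic genes, and the lowest of the mitochondrial genes was -0.28 (Ears2). At an unadjusted p under 0.05 the edgeR test listed 1 member, Rars (0.16 ± 0.06, adjusted p = 0.450), and DESeq2 called 0. Between both cytokines and IL-22 alone 0 of 37 were called, beside 0.0786% of all genes, with 0 members at an unadjusted p under 0.05 in edgeR, 0 called by DESeq2 and log2 fold changes from -0.21 to 0.15. The interaction of the cytokines, which asks whether the effect of IL-22 differs with IL-1b present, was called for 0 of 37 members and 0 of all genes, with 0 members at an unadjusted p under 0.05 in edgeR and 0 by DESeq2. Its estimates ran from -0.14 to 0.23 on the log2 scale for the cytosolic genes and from -0.33 to 0.25 for the mitochondrial genes.

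Across all 12 libraries, 12 of 20 cytosolic genes were higher in each of the 6 libraries with IL-22 than in each of the 6 without, against 10.4% of all genes. These were Aars, Cars, Farsb, Gars, Hars, Mars, Nars, Rars, Sars, Tars, Wars and Yars. Among the mitochondrial genes Nars2 was higher and Hars2 lower in this sense (1 of 17 each), against 10.4% and 8.55% of all genes.

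Levels were compared between genes per kilobase of the principal transcript. With IL-22 the highest were Wars, the tryptophan enzyme and a known interferon-induced gene, at 139 ± 5.83 CPM per kilobase (SD, n = 3), then Gars (114 ± 4.36), Nars (112 ± 4.30) and Rars (101 ± 2.45). Gars and Nars lay within their SDs of each other. Without cytokine the order was also Wars (114 ± 2.30), Gars (95.5 ± 2.56), Nars (89.2 ± 3.25) and Rars (73.4 ± 4.49), followed by Kars (66.6 ± 7.45), which overlapped with Rars within the SDs. With IL-22 Kars was at 65.2 ± 2.52 and no longer near Rars. The mitochondrial genes highest in level with IL-22 were Rars2 (34.0 ± 2.46) and Iars2 (33.5 ± 1.76), and Mars2 was lowest at 1.87 ± 0.240. That rank rests on its annotated length, as Mars2 has the longest principal transcript of the members (11294 bases). Not divided by length, its mean with IL-22 was 21.1 CPM, above Sars2 (17.7), Pars2 (16.5) and Ears2 (13.8).

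Genes of amino acid supply and the stress response around ATF4 were described from lists chosen with earlier results of these data known, so that their direction is not independent evidence. Of 13 genes of the ATF4 axis, 7 rose with IL-22 and none fell (median log2 fold change 0.36), beside 11.9% and 10.6% of all genes. The share called higher went with count per exon base, as given above, and the lists were not matched for it. The 7 genes were led by Chac1, which degrades glutathione (1.02 ± 0.10, edgeR adjusted p = 7.59e-06), Vldlr (0.53), Nupr1 (0.49) and Atf3 (0.46). Their count was 6 with the level trend removed and 7 with DESeq2. It ran from 1 to 9 over all settings, some of which tested fewer genes. Atf4 mRNA itself rose by 0.25 ± 0.06 (edgeR adjusted p = 0.00582).

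Of 14 genes of amino acid synthesis and one-carbon metabolism, 8 rose and 2 fell with IL-22 (median 0.47), beside 11.9% and 10.6% of all genes. Mthfd2, a mitochondrial folate enzyme, and Psat1, of serine synthesis, both stood at 0.70, and Asns, asparagine synthetase, went from 127 ± 7.19 to 190 ± 10.0 CPM (0.58 ± 0.06, edgeR adjusted p = 1.68e-05). The genes that fell were Cbs (-1.31 ± 0.38) and Gpt2 (-0.52 ± 0.16), and neither call held without IL-22 replicate 2, unstimulated replicate 1 or unstimulated replicate 2. The Cbs call was also lost without IL-22 replicate 3, the Gpt2 call without IL-22 replicate 1, and both with the level trend removed. Of 9 amino acid transporters tested, 6 rose and none fell (median 0.32), led by Slc7a5, a carrier of large neutral amino acids (0.81 ± 0.11, edgeR adjusted p = 0.000153), the cystine carrier Slc7a11 (0.66), Slc6a9 (0.44) and Slc7a1 (0.43). The transporter count stands beside the same 11.9% of all genes, and it was 3 without unstimulated replicate 2 or 3.

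Of 8 genes tested around eIF2 phosphorylation, not all of them kinases or phosphatases, 4 rose with IL-22, beside 11.9% of all genes. The 4 were Ppp1r15a (0.95), which directs eIF2 dephosphorylation, Eif2ak3 (0.38), the kinase PERK of the endoplasmic reticulum, Eif2ak2 (0.27) and Ppp1r15b (0.25). The count was 2 without unstimulated replicate 2. Eif2ak4, the kinase GCN2 that senses uncharged tRNA, fell by 0.34 on the log2 scale (edgeR adjusted p = 0.0193), from 41.9 ± 3.90 to 33.1 ± 1.33 CPM. That call was lost with DESeq2 and without IL-22 replicate 3 or unstimulated replicate 1 or 2. With both cytokines Eif2ak4 fell by 0.48 (edgeR adjusted p = 0.00232).

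Other parts of the translation machinery gave few calls with IL-22, in lists of 4 to 9 genes. Of all genes tested, 11.9% were called higher and 10.6% lower. At these shares, lists this short hold few calls, so 0 called does not set them apart from all genes. None of 9 mitochondrial translation factors, 6 cytosolic elongation factors, 7 genes of the MYC axis tested, 4 enzymes of mitochondrial glutamine and initiator tRNAs, or 6 synthetase-like and editing genes passed the edgeR test, and DESeq2 also called 0 in each of these lists. At an unadjusted p under 0.05 edgeR listed 2, 1, 0, 0 and 0 of them. Their median log2 fold changes were -0.05, 0.07, 0.05, -0.10 and -0.04. Myc itself had -0.22 ± 0.16 (edgeR adjusted p = 0.350). Of 4 selenocysteine tRNA genes, Sepsecs fell with IL-22 (-0.25 ± 0.08, edgeR adjusted p = 0.0441), a call lost with DESeq2 and in 8 of the 12 fits that left out 1 library, and with both cytokines it fell by 0.44 (edgeR adjusted p = 0.00150).

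With both cytokines 13.7% of all genes were called higher and 13.3% lower. The ATF4 axis again had 7 genes higher and none lower, with Chac1 at 1.03. The genes around eIF2 phosphorylation had 5 higher and 1 lower. Amino acid synthesis had 7 higher and 2 lower, with Psat1 at 0.64 and Cbs at -1.82. The transporters had 6 higher and 1 lower, with Slc7a11 at 1.08, Slc7a5 at 0.69 and Slc1a4, a carrier of neutral amino acids, at -0.34. Among the other lists, Eef1g (0.16) and Eif5a (0.19) of the 6 elongation factors were called higher, and Gfm2 (-0.24) of the 9 mitochondrial translation factors, and Dtd1 (-0.41) and Tarsl2 (-0.46) of the 6 synthetase-like and editing genes, were called lower. Each of these 5 calls was lost without replicate 3 of both cytokines and without unstimulated replicate 2. DESeq2 called 1 elongation factor higher and 0 synthetase-like and editing genes lower. With the level trend removed both of these counts were 0, and 1 synthetase-like or editing gene was called higher. The mitochondrial translation factors kept 1 called lower in both settings. No gene of the MYC axis or of the mitochondrial glutamine and initiator tRNA enzymes was called (edgeR, with 1 in each at an unadjusted p under 0.05, and 0 by DESeq2). These values share the unstimulated libraries with the IL-22 comparison.

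**Figure D5:**
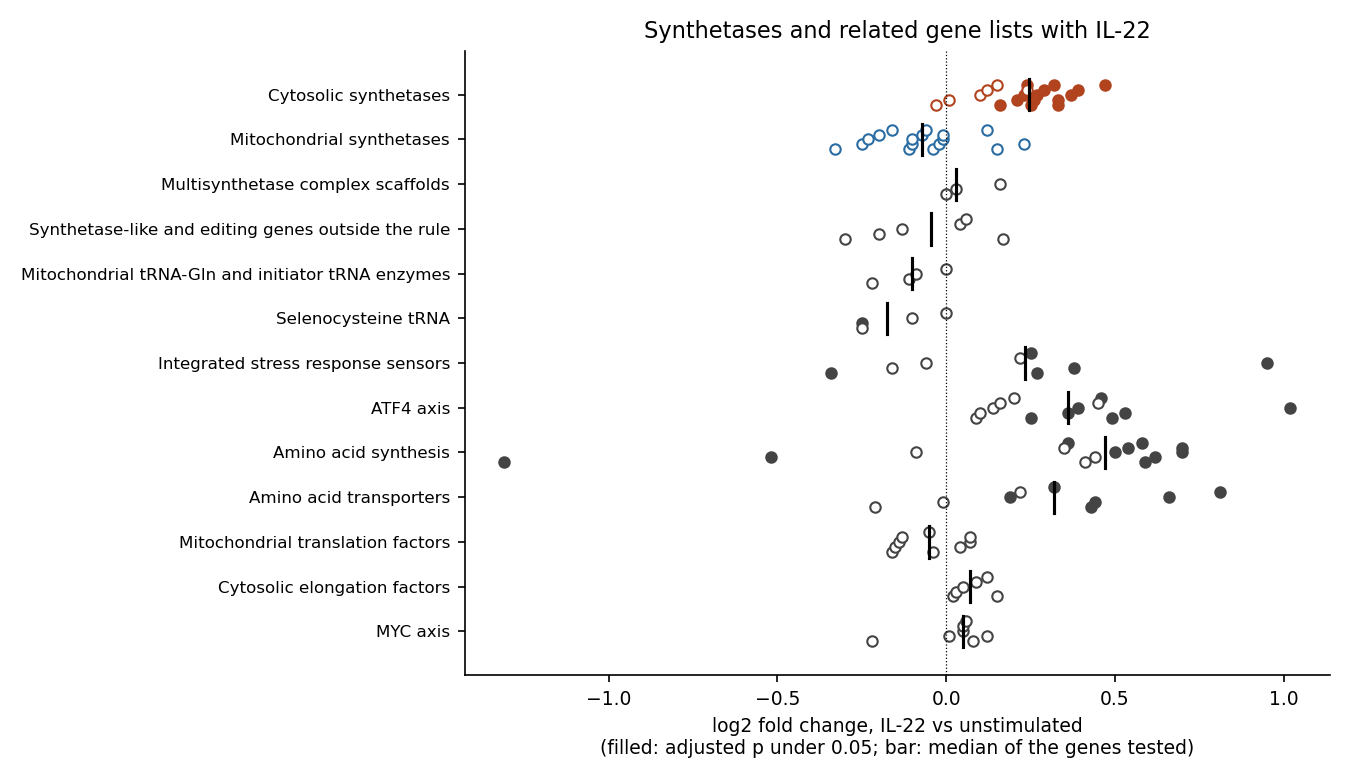
Log2 fold change with IL-22 against unstimulated for each gene (points) of the synthetases and of 11 related gene lists (rows), filled where the adjusted p is under 0.05, with the median of the genes tested as a bar. Called genes lie to the right in the cytosolic synthetases (median 0.25), the ATF4 axis (0.36) and the amino acid transporters (0.32).

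Shared gene models bear on some of these values. In all, 14 of 37 members share exon bases with another model of the mm10 annotation. Among them, Aars shares 1403 of its 9282 exon bases, mostly with Exosc6 on its own strand. Cars, Cars2, Ears2, Fars2, Farsb, Nars2, Vars2 and Yars share between 0.505% and 10.7%, all with models on the opposite strand. The sources used here do not say whether strand was used in counting, so reads in shared bases cannot be told apart.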

How the data were processed

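The authors deposited a table of raw read counts, 1 row per gene symbol. The submitters' processing notes name build mm10. Libraries were made with the TruSeq Stranded kit, per the labels' protocols. For the aligner, counter, annotation and strand setting: not given in the sources used here. The members and gene lists were chosen with earlier results of these data known.

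Counts were analysed with edgeR 4.0.16 in R 4.3.3: filterByExpr kept 13987 of 35869 symbols, libraries were scaled by TMM (factors 0.957 to 1.04), and the quasi-likelihood fit took all 12 libraries, with a mean for each group (8 residual degrees of freedom). Tests were two-sided, with Benjamini-Hochberg adjustment over all genes tested and calls at 0.05. CPM use the TMM-scaled totals, and the SE is the log2 fold change divided by the root of F. The fitting step was run on simulated counts with known fold changes, as a check of the code. Those counts were drawn without a trend of fold change on level and without variance below random sampling. They therefore do not test the fit for these features of the data. At 4703902 to 5804033 counts per library, the lowest count of any member in a library was 55, where counting error is largest.

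Exon lengths, positions and shared exon bases are from GENCODE M21 on mm10 (GRCm38), and promoter sequences from RefSeq (GRCm38.p6). Values in every library were to be given for up to 6 called members per compartment with the largest change against unstimulated, and up to 4 called between both cytokines and 1 cytokine. Hars2, Sars and Yars2 were added after their values were seen. The values of 1 mitochondrial member are not reported here, though counts and sums over the members include it. Pathway lists were to show up to 4 called members each; Atf4, Ddit3, Asns, Gpt2, Slc1a4 and the further gene of the eIF2 list were named after their values were seen. Alternatives were DESeq2 1.42.0, library totals without TMM, other filters, a replicate block, only the libraries compared, each library left out, subtraction of a lowess curve (span 0.3) of log2 CPM deviation on exon-base coverage, a table limited to genes below 0.1 counts per base of exon, and, added after seeing the data, a correction for positions counted once.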

Additional observations from a re-analysis of the deposited data

How the results depend on the processing

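With IL-22, the calls of Aars, Cars, Farsb, Gars, Mars, Nars, Rars, Tars and Wars held in every alternative run that tested them; with both cytokines these 9 and Hars did, and for both against IL-1b 8 (all but Farsb and Hars). No call of a cytosolic gene changed direction. The cytosolic count with IL-22 (14) was 9 with library totals only, where the median of all genes was -0.06 and 2 mitochondrial genes were called lower (Hars2 and Iars2); it was 12 with DESeq2 and 10 with only the libraries compared. Restricted to genes under 0.1 count per exon base, which leaves 3 cytosolic and 15 mitochondrial members, the cytosolic counts were 1 with IL-22, 1 with both and 2 for both against IL-1b, and mitochondrial genes called higher were 0, 1 and 2. With the level trend subtracted, mitochondrial genes called higher were 1, 2 and 2. Among the 16 mitochondrial genes with values reported, those called lower for both against IL-1b (0) became 1 (Pars2) with library totals and 1 (Pars2) with only the libraries compared, and 0 to 1 when 1 library was left out. The causes were not tested. Leaving out 1 library, the cytosolic counts ran from 9 to 14 with IL-22, 10 to 15 with both, 9 to 15 for both against IL-1b, and mitochondrial genes called higher with both from 0 to 1. Same-numbered libraries deviated together with r of -0.188 to 0.179, and 2 of 12 correlated best with their own number, so the numbers are not taken as pairs; with the replicate number as a block the cytosolic counts were 11, 13 and 14. IL-1b against unstimulated, both against IL-22 and the interaction had 0 members called in every alternative.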
